A study of Mus musculus with 4 samples.

Results

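The genes described here encode leukocyte adhesion molecules and the integrins that bind them: the immunoglobulin family receptors Icam1, Icam2 and Vcam1, the endothelial selectins Sele and Selp, the leukocyte integrin subunits Itgb2, Itgal, Itga4 and Itgb1, and the hyaluronan receptor Cd44. They were chosen by symbol, selected on the day 5 FPKM differences between DTA and control, and all 10 were found among the 22558 gene symbols of the deposited expression files. Because those same differences chose the list, the values below describe the genes and are not tested.

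The tissue was whole retina, taken from mice about 8 weeks old whose background mixed C57BL/6 with 129, and its mRNA was sequenced. Injured mice (called DTA here) had the genotype Msi1-CreERT2/+; R26R-DTA/+, and control mice had +/+; R26R-DTA/+. CreERT2, here driven by Msi1, recombines DNA only with a ligand bound to its receptor part, and R26R-DTA yields the A fragment of diphtheria toxin in cells where Cre has acted, which stops their protein synthesis. Both groups carried the toxin allele and the DTA mice alone carried Cre, so effects of Cre and of the toxin cannot be told apart, and the sources used here do not give the retinal cells in which Cre acted, the agent that set it off or the number of mice per library. There were 4 libraries, 1 each of DTA at day 5, control at day 5, DTA at day 1 and control at day 1 after injury. With 1 library per group there is no replicate check of any difference, and no standard deviation or p-value is given.

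White blood cells leave the blood by rolling on selectins of activated endothelium, then arresting when their integrins bind immunoglobulin family receptors, and then crawling across the vessel wall. An integrin is a pair of an alpha and a beta chain: Itgal with Itgb2 forms LFA-1, which binds Icam1 and Icam2, while Itga4 with Itgb1 forms VLA-4, which binds Vcam1 and fibronectin. Inflammatory cytokines induce Icam1, Vcam1 and Sele through NF-kappa B in endothelium. In the retina Icam1, Vcam1 and Cd44 are also made by glia, and Itgb1 by most cells that sit on matrix, so these transcripts do not mark one cell type.

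Levels are FPKM (fragments scaled to transcript length and library size). They can be set side by side between genes only roughly, and least so for very short genes or genes that overlap another. A difference is log2(FPKM + 1) in DTA less that in control, and a fold is the ratio of their FPKM. Calls of higher or lower rest on size, not on a test: the difference reached 1 either way, one of the libraries compared had to reach an FPKM of 5, and the 2 controls had to differ by less for that gene. Depth, estimated from the smallest steps in the low FPKM values, was about 28800000 fragments in DTA and 36200000 fragments in control at day 5, and about 98400000 fragments in DTA and 72100000 fragments in control at day 1. The day 1 DTA file used here holds 5799 symbols, among them Icam2, Sele, Selp and Itgb2, so day 1 differences cover 4 of the 10 genes. Of rod markers, which define the labelled tissue, all 6 measured at day 5 were present at 43.5 FPKM or more in DTA and 4 of them were called lower. Markers of lens and pigment epithelium, which adjoin the retina, differed between the controls, 7 of 8 and 4 of 7 of them being called lower at day 5 than at day 1.

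At day 5, Icam1, Vcam1, Cd44 and Itga4 were called higher in DTA than in control retina, and no member was called lower. The median of the 10 differences was 0.84, against 0.06 over all 22541 genes with a value. All 10 lay above 0, but so did most genes, since the median over all genes was itself above 0. The exact share of all genes above 0 was not computed. The differences of Sele and Selp rested on about 4.86 and 1.41 fragments in DTA and give no direction. Of the 10, 5 passed the floor of 5 FPKM: the 4 called and Itgb1. Icam1, Vcam1 and Cd44 passed it through the DTA library alone. Among the 9883 genes that passed the floor, 6.75% were called higher and 1.77% lower. Those genes had a median difference of 0.26, which was 0.03 after scaling by the median ratio of genes. The 667 higher and 175 lower calls over all genes became 424 and 255 with that scaling, and 451 and 241 when libraries were scaled to their sum without rod and very abundant genes.

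**Figure D1:**
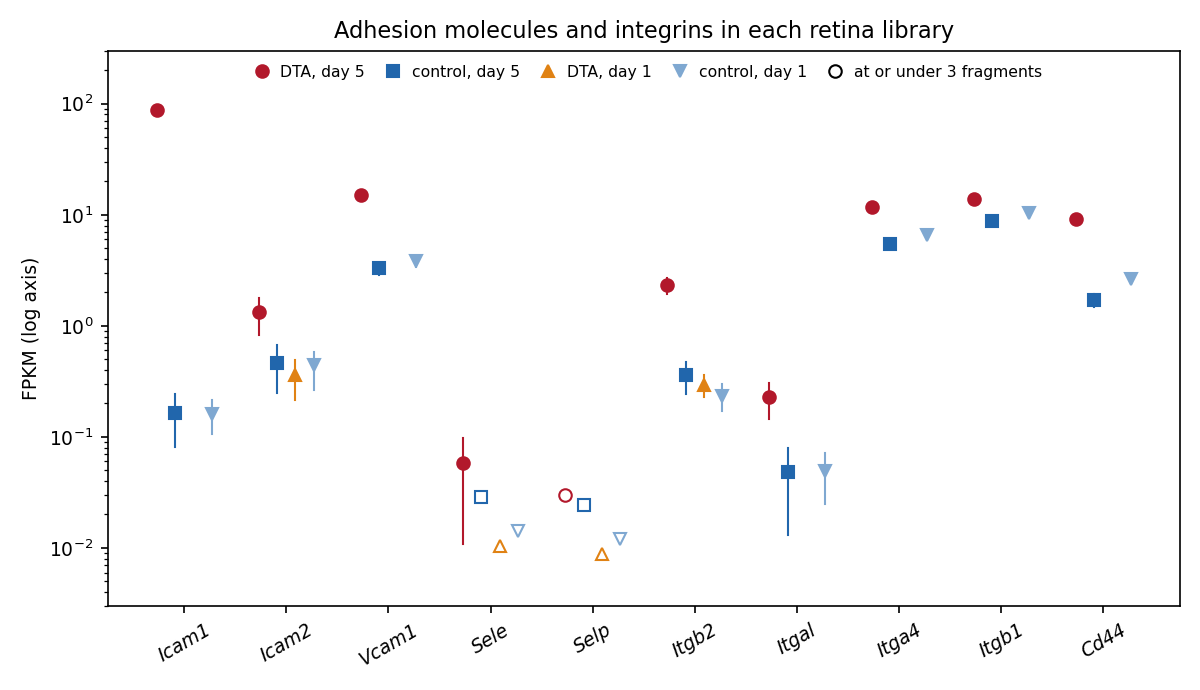
FPKM of each member (log axis) in the DTA and control libraries at day 5 and at day 1, 1 library per symbol; lines are the authors' confidence bounds where these enclose the value, and open symbols stand at the FPKM of 3 fragments for values at or under it. Icam1 stood at 88.5 FPKM in DTA at day 5 and at 0.164 and 0.161 FPKM in the controls of day 5 and day 1, while Sele and Selp lay at the bottom in each library that holds them.

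Icam1, the main endothelial and glial ligand of LFA-1 (mm9, chromosome 9, 20820404 to 20833240, plus strand, 7 exons), stood at 88.5 FPKM in DTA at day 5, against 0.164 FPKM in control at day 5 and 0.161 FPKM in control at day 1. The DTA library stood far above both controls, which were nearly equal. The difference was 6.27 and the fold 540. The control value rested on about 15.1 fragments, and with the authors' upper and lower bounds for the control the fold was 367 and 1101. The authors' upper bound for Icam1 in day 5 DTA was 85.7 FPKM, below the FPKM itself, so no interval is given for that value. It was the only one of the 34 member values outside its bounds. Only 8 of the 9883 genes at 5 FPKM or more had a larger difference. Of these 7 had microRNA or small nucleolar RNA names, very short genes for which FPKM divides by a small length. The other, AF357355, was not sorted by kind.

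The Icam1 neighbours on chromosome 9 stood far below it in DTA at day 5, while in control at day 5 Icam4 was close to it. Icam4, a red cell adhesion molecule just downstream, stood at 0.445 FPKM in DTA and 0.181 FPKM in control at day 5. Icam5, the neuronal telencephalin, stood at 0.913 FPKM in DTA and 1.02 FPKM in control at day 5.

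The promoter windows of Icam1, Sele and Cd44 are shown because the first is the member with the widest difference, the second is a known NF-kappa B target listed near 0, and the third was called higher. RefSeq promoter windows on GRCm38.p6 (250 bases before to 50 after the annotated start) were matched for 6 members, Icam1, Sele, Selp, Itga4, Itgb1 and Cd44. The 250 bases before the start are printed 5′ to 3′ on the strand of the gene, at chr9:21015690-21015939 (plus) for Icam1, chr1:164047984-164048233 (plus) for Sele and chr2:102901666-102901915 (minus) for Cd44. Capitals mark matches to the motifs named below.
Icam1: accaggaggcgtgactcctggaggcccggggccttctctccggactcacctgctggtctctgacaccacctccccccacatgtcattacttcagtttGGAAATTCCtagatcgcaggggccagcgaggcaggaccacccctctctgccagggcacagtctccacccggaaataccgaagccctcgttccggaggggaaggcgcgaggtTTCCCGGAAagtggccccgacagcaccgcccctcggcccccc
Sele: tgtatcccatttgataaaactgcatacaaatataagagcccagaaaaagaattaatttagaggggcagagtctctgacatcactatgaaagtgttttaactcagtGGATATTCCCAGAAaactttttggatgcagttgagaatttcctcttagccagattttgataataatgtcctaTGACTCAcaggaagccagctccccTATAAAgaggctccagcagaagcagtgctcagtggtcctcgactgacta
Cd44: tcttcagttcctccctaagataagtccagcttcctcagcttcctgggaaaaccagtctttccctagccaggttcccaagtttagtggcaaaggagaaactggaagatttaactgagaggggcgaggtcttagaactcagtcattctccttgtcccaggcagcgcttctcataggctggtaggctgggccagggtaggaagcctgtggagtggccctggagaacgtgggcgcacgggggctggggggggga

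Motifs were searched on both strands of the whole windows. The core GGANNTTCC of NF-kappa B sites was found in Icam1 as GGAAATTCC from -153 to -145, and in Sele as GGATATTCC from -145 to -137. It was found in 4.26% of the 32817 promoter windows of the table. The STAT motif TTCNNNGAA was found in Icam1 as TTCCCGGAA from -42 to -34, and in Sele as TTCCCAGAA from -140 to -132, where it shares 4 bases with the NF-kappa B match. It was found in 8.29% of all windows. The AP-1 motif TGANTCA was found in Sele and Selp and in 7.81% of all windows, and an IRF motif (TTTC, any 2 bases, TTTC) in none of the 6 and in 3.43% of all windows. A TATAAA stood at -49 in Sele and at 14 in Icam1, and in 13.6% of all windows. Cd44, Itga4 and Itgb1 held no match to these letters. The motifs were chosen with the sequences and values known, and a match is a string of letters and not a measured binding site.

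**Figure D2:**
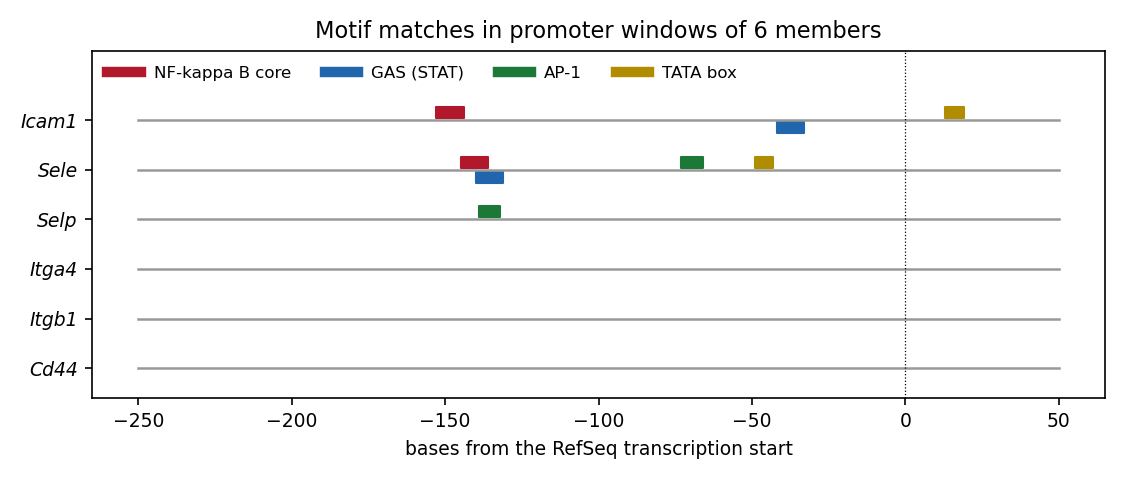
Motif matches in the promoter windows of the 6 members with a RefSeq entry, drawn by distance in bases from the annotated start (dotted line); each bar is 1 match. Icam1 and Sele share an NF-kappa B core, from -153 in Icam1 and -145 in Sele, and a STAT motif, while Cd44, Itga4 and Itgb1 have no match.

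Vcam1, the endothelial and glial ligand of VLA-4 (chromosome 3, 115812938 to 115832606, minus strand), stood at 14.9 FPKM in DTA at day 5, against 3.34 FPKM in control at day 5 and 3.82 FPKM in control at day 1. The authors' bounds of 13.5 to 15.4 FPKM in DTA lay above those of both controls, whose highest was 4.04 FPKM. It was called higher, with a difference of 1.88 and a fold of 4.48. Its difference exceeded that of 97.7% of genes past the floor. Scaling by the median ratio left 1.67.

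Icam2, the ligand of LFA-1 that resting endothelium makes without induction (chromosome 11, 106238970 to 106243955, minus strand), stood at 1.33 FPKM in DTA and 0.462 FPKM in control at day 5, and at 0.358 FPKM in DTA and 0.440 FPKM in control at day 1. The day 5 DTA library was the highest, and its lower bound of 0.823 FPKM was above the upper bound of 0.670 FPKM in control at day 5. The difference was 0.67, under the size rule and under the floor, and the fold was 2.89 on about 49.3 fragments in DTA and 21.4 in control. At day 1 the difference was -0.08, with overlapping bounds.

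The selectins were at the limit of detection. Sele, E-selectin, which activated endothelium makes (chromosome 1, 165978365 to 165987808), was listed at 0.0578 FPKM in DTA at day 5 and at 0 in control at day 5 and in both day 1 libraries. The DTA value corresponds to about 4.86 fragments, and 3 fragments in the day 5 control would be 0.0284 FPKM, so no fold is given. Selp, P-selectin of endothelium and platelets (chromosome 1, 166045395 to 166080157), was listed at 0.0142 FPKM in DTA and 0.00789 FPKM in control at day 5, each under 3 fragments. At day 1 it was at 0 in DTA and practically 0 in control. A difference in either selectin was not detectable at this depth beyond these few fragments.

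Itgb2, the beta chain of the leukocyte integrins (chromosome 10, 76993093 to 77028419, plus strand), stood at 2.34 FPKM in DTA and 0.360 FPKM in control at day 5, and at 0.296 FPKM in DTA and 0.236 FPKM in control at day 1. The day 5 DTA library stood apart, with bounds of 1.93 to 2.70 FPKM, while the other 3 libraries lay between 0.236 and 0.360 FPKM. The day 5 difference was 1.30 and the fold 6.51, on about 201 fragments in DTA and 38.7 in control. It was not called, since no library reached 5 FPKM, and was called with a floor of 1 FPKM or none. At day 1 the difference was 0.07. The day 5 difference minus the day 1 difference was 1.23, the largest among the 4 members in all 4 libraries.

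Itgal, the alpha chain of LFA-1 on lymphocytes and other leukocytes (chromosome 7, 134439862 to 134477412, plus strand), stood at 0.229 FPKM in DTA at day 5, against 0.0484 FPKM in control at day 5 and 0.0495 FPKM in control at day 1. The DTA bounds of 0.145 to 0.306 FPKM lay above both controls. The fold was 4.73 on about 34.5 fragments in DTA and 9.16 in control, and the difference of 0.23 was under the size rule. Among the 4 alpha chains that pair with Itgb2, Itgal made up 6.36% of the summed FPKM in DTA and 9.64% in control at day 5. Itgam, the alpha chain of Mac-1 on microglia and macrophages, made up 82.9% in DTA and 86.3% in control. Itgam stood at 2.99 FPKM in DTA and 0.433 FPKM in control at day 5, a difference of 1.48 under the floor.

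Itga4, the alpha chain of VLA-4 (chromosome 2, 79095583 to 79173271, plus strand), stood at 11.8 FPKM in DTA at day 5, against 5.40 FPKM in control at day 5 and 6.55 FPKM in control at day 1. The DTA library was the highest of the 3. The difference was 1.003 and the fold 2.19, and it was the member just inside the size rule. With a pseudocount of 5 it was 0.69, with median ratio scaling 0.78, with scaling to the sum without rod and abundant genes 0.82, against the day 1 control 0.76, and 0.88 both against the mean of the controls and with the authors' bounds, each under the rule. The 3′ end of Itga4 overlaps Cerkl, a ceramide kinase-like gene of photoreceptors transcribed from the opposite strand. In the mm9 annotation 346 exonic bases are shared, within 79170700 to 79172813, which is 3.52% of the exonic bases of Itga4. Cerkl itself stood at 30.9 FPKM in DTA, against 11.5 FPKM in control at day 5 and 12.7 FPKM in control at day 1. The sources used here do not say whether the counting used strand, so the Itga4 values may hold fragments of Cerkl. The part of Cerkl in the Itga4 difference was not tested, and without Itga4 the members called number 3 of 9.

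Itgb1, the beta chain shared by VLA-4 and most matrix-binding integrins (chromosome 8, 131209554 to 131257479, plus strand), stood at 13.9 FPKM in DTA at day 5, against 8.84 FPKM in control at day 5 and 10.4 FPKM in control at day 1. Its DTA bounds of 12.7 to 14.4 FPKM lay above those of both controls. The difference was 0.60 and the fold 1.57, under the size rule, and it was the next member below that rule among those past the floor. Median ratio scaling left 0.37. Of the genes past the floor, 79.3% had a smaller difference. The 12 alpha chains that pair with Itgb1 summed to 35.2 FPKM in DTA and 21.9 FPKM in control at day 5. Itga4, whose values may hold fragments of Cerkl, led them with 33.6% in DTA, and Itgav with 33.2% in control.

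Cd44, the hyaluronan receptor of leukocytes and reactive glia (chromosome 2, 102651300 to 102741822, minus strand), stood at 9.24 FPKM in DTA at day 5, against 1.71 FPKM in control at day 5 and 2.64 FPKM in control at day 1. The DTA bounds of 8.61 to 9.87 FPKM lay above both controls, which differed from each other by -0.43 (day 5 minus day 1). It was called higher, with a difference of 1.92 and a fold of 5.42, or 3.50 against the day 1 control. Median ratio scaling left 1.73. Cd44 has many splice forms, and the files give 1 value for the gene.

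**Figure D3:**
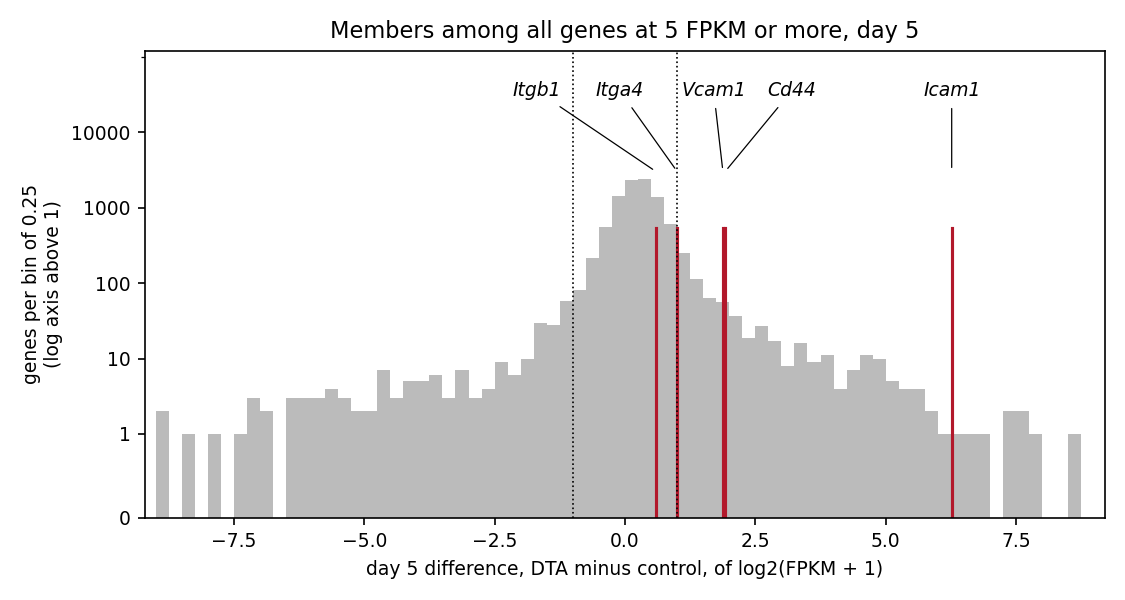
Number of genes (log axis above 1) by their day 5 difference, DTA minus control of log2(FPKM + 1), over the 9883 genes at 5 FPKM or more; red lines mark the 5 members past that floor and dotted lines the size rule of 1 each way. Itgb1 lies within the bulk at 0.60, Itga4 on the rule at 1.003, Vcam1 and Cd44 at 1.88 and 1.92, and Icam1 at 6.27.

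The order of the members by level differed at its top between DTA and control. In DTA at day 5 it ran Icam1, Vcam1, Itgb1, Itga4, Cd44, Itgb2, Icam2, Itgal, Sele and Selp. The authors' bounds of Vcam1 and Itgb1 overlapped there, as did those of Sele and Selp. In control at day 5 it ran Itgb1, Itga4, Vcam1, Cd44, Icam2, Itgb2, Icam1, Itgal, Selp and Sele, and the day 1 control had the same order. Bounds of Icam2 and Itgb2 overlapped in both controls and in DTA at day 1. Those of Itgb2 and Icam1 overlapped in both controls, and those of Itgal and Selp in control at day 5. Summed over the 10 members, FPKM came to 142 in DTA and 20.3 in control at day 5, of which Icam1 made up 62.2% and 0.806%. Without Icam1 the sums were 53.9 FPKM in DTA and 20.2 FPKM in control.

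At day 1 none of the 4 members measured passed the floor, so none could be called. Over the 2623 genes that did, 2.06% were called higher and 0.61% lower. For the day 5 difference minus the day 1 difference, none of the 4 members passed the floor, so 0 of 4 were called by construction. Of the 2777 genes past it, 3.02% were called higher and 2.52% lower. That split of 84 higher and 70 lower became 65 and 87 with median ratio scaling. Between the controls, 0 of 10 members were called, against 0.858% higher and 1.72% lower of 9321 genes in the day 5 control relative to the day 1 control, and 2 members passed the floor. The largest member difference between the controls was that of Cd44.

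Of 124 other genes of the adhesion pathway, in 8 lists drawn up with earlier results of these data known, 53 passed the floor at day 5. Of these 15 were called higher in DTA and 1 lower, and the median difference over those measured was 0.29. Over all genes past the floor 6.75% were higher and 1.77% were lower. The pathway median took genes with no floor. Over all 22541 genes with a value the median was 0.06, and over those past the floor it was 0.26. With median ratio scaling the pathway genes gave 9 higher and 2 lower calls and a median of 0.12, and with the sum without rod and abundant genes 10 and 2 calls and 0.13. Among 18 endothelial and junctional receptors, 8 of them past the floor, 3 were higher, with a median of 0.13. Madcam1, the addressin that binds the alpha 4 beta 7 integrin and is known from gut venules, stood at 5.48 FPKM in DTA and 0.0419 FPKM in control, a difference of 2.64. Cd47, which signals to phagocytes, differed by 1.31. The third, Podxl, a sialomucin, differed by 1.02 and is named after its value was seen. Cd34 (1.09) and Mcam (1.02), of endothelium and pericytes, were under the floor.

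Among 13 selectin ligands and the enzymes that make them, 6 past the floor, none was called, with a median of 0.11. Fut7, a fucosyltransferase of selectin ligands, differed by 0.98 under the floor, at 1.04 FPKM in DTA. Cd24a, a mucin-like ligand of Selp, differed by 0.94, and by -0.96 between the controls (day 5 minus day 1). Selplg, the main ligand of P-selectin, stood at 2.45 FPKM in DTA and 1.31 FPKM in control, and St3gal6, a sialyltransferase, differed by 0.14. Among 5 other leukocyte integrins none passed the floor, and Itgam led them. Among 11 alpha partners of Itgb1, 2 of them past the floor, none was called, with a median of 0.20. Itga3 and Itga6, laminin receptors, differed by 0.75 and 0.70, Itga5, the fibronectin receptor, by 0.40, and Itga10, a collagen receptor, by 0.29.

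Among 25 integrin activation and adaptor genes, 17 of them past the floor, 1 was higher, with a median of 0.29. It was Skap2, an adaptor of myeloid integrin signalling, at 5.19 FPKM in DTA and 0.995 FPKM in control. Fermt3 (1.55), the kindlin of blood cells, Apbb1ip (1.05), which links Rap1 to talin, and Fyb (0.98), a leukocyte adaptor, were under the floor. Among 23 matrix ligands, 5 of them past the floor, 3 were higher and 1 lower, with a median of 0.17. Spp1, osteopontin, a ligand of Itga4 and Cd44, stood at 25.9 FPKM in DTA and 7.88 FPKM in control. Col4a1, of basement membranes, differed by 1.33, and Fn1, fibronectin, named after its value was seen, by 1.09. Srgn, the proteoglycan core protein of leukocytes, differed by 1.11 under the floor. Vtn, vitronectin, which photoreceptors also make, was called lower, at 146 FPKM in DTA and 397 FPKM in control.

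Among 14 Cd44 partners and hyaluronan genes, 7 of them past the floor, 1 was higher, with a median of 0.33. It was Msn, moesin, which ties Cd44 to actin, at 17.8 FPKM in DTA and 6.79 FPKM in control. Its relatives Ezr and Rdx differed by 0.96 and 0.75, and Tnfaip6, a hyaluronan-binding protein of inflammation, by 1.19 under the floor. Between the controls Ezr differed by -0.94 (day 5 minus day 1). Among 15 cytokines and factors that induce adhesion genes, 8 past the floor, 7 were higher, with a median of 1.06 over the 13 measured. Irf1 stood at 30.9 FPKM in DTA and 1.40 FPKM in control, and the NF-kappa B subunits Relb and Nfkb2 at 19.0 and 10.8 FPKM in DTA, against 0.907 and 0.499 FPKM in control. Tnfrsf1a, the TNF receptor, differed by 1.45. The remaining higher genes, named after their values were seen, were Nfkbia (1.28), Rela (1.16) and Nfkb1 (1.06). Tnf stood at 0.553 FPKM in DTA and was listed at 0 in control, and Ifng was listed at 0 in both.

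**Figure D4:**
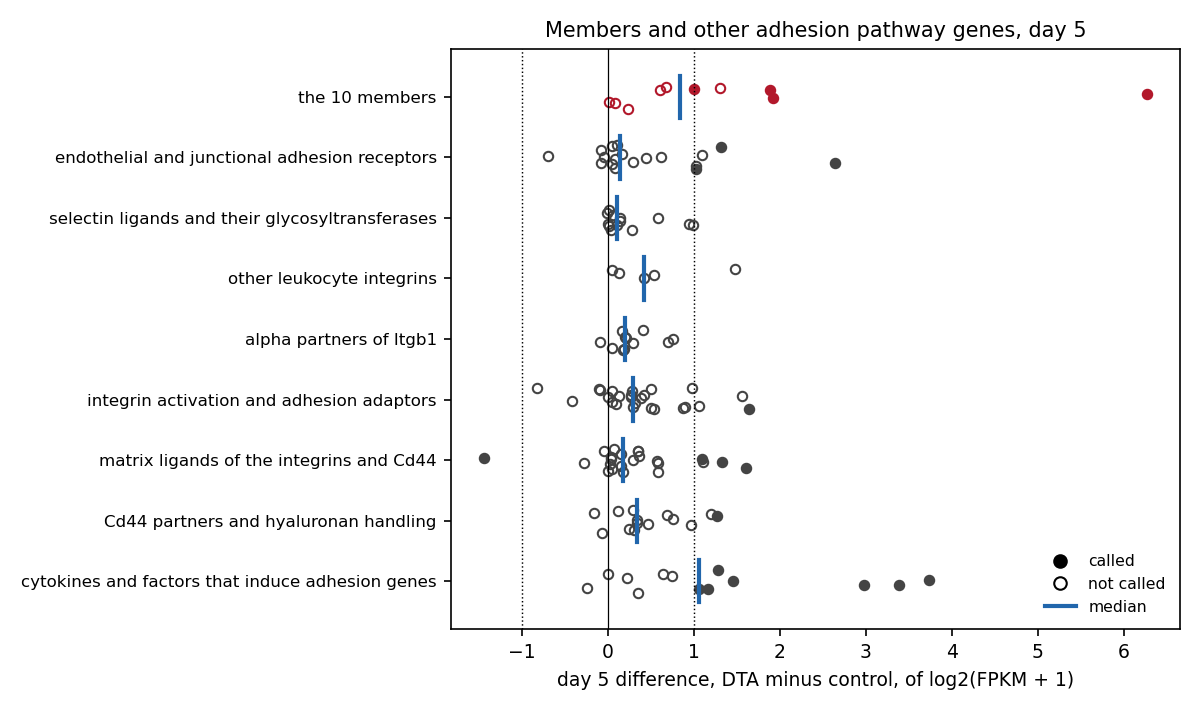
Day 5 difference, DTA minus control of log2(FPKM + 1), of the 10 members (red, top) and of the genes of 8 adhesion pathway lists; filled points were called, open points not, and blue bars are medians. The members have a median of 0.84, and the list of cytokines and inducing factors lies furthest right of the others, at 1.06.

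At day 1, with few pathway genes measured, Irf1 stood at 27.5 FPKM in DTA and 1.52 FPKM in control and was called higher (3.50), as was Cd24a (1.06). Nfkbia (0.57), Itga7 (0.48), Fn1 (0.28), Itga3 (0.26), Pecam1 (0.22), F11r (0.21), Cd34 (0.21) and Nf2 (0.01) were not called, nor were Vcan, Lims1, Vcl, Lamc1 and Rap1b, which lay below 0.

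The retina is a mixture, and in bulk RNA more cells of a type and more RNA per cell cannot be told apart. Markers of leukocytes stood higher along with Itgb2 and Itgal. Of 14 microglia and macrophage markers 11 passed the floor at day 5, and these 11 were called higher in DTA and none lower. The summed level of the 14 was 199.6 FPKM in DTA, against 33.3 FPKM in control at day 5 and 36.2 FPKM in control at day 1. The largest differences were those of Lyz2, Fcer1g, Aif1 and C1qa, at 2.88, 2.73, 2.72 and 2.67, and no marker of the list was at 0. The smallest, named after their values were seen, were those of Tmem119 (0.68) and P2ry12 (0.17), both under the floor. P2ry12 stood at 1.17 FPKM in DTA, against 0.932 FPKM in control at day 5 and 1.63 FPKM in control at day 1. Of 8 pan-leukocyte markers 3 passed the floor and 2 were higher, Cd52 (2.56) and Laptm5 (1.93), with Lcp1 (1.69) and Cd53 (1.02) under the floor. Their sum was 34.9 FPKM in DTA, against 7.10 FPKM in control at day 5 and 8.61 FPKM in control at day 1. Ptprc, CD45, shown after its value was seen, had a fold of 5.65, beside 6.51 for Itgb2 and 6.90 for Itgam. The part of these cells in the Itgb2 and Itgal values was not tested.

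Markers of lymphocytes and neutrophils were low, and some were listed at 0. Cd79a, Lck, Csf3r and Camp, named after their values were seen, stood at 0.836, 0.720, 0.616 and 0.553 FPKM in DTA at day 5. In control at day 5 they stood at 0.0227, 0.177, 0.162 and 0.0643 FPKM. Ptprc stood at a like level, 0.571 FPKM in DTA and 0.101 FPKM in control. Cd4, Cd8a and Ngp were lower in DTA, each near 0 in both. The 9 T and natural killer cell markers summed to 0.865 FPKM in DTA and 0.301 FPKM in control at day 5, and Cd3e, Cd3g, Cd2 and Ncr1 were listed at 0 in both. The 4 B cell markers summed to 1.34 FPKM in DTA and 0.245 FPKM in control, with Ms4a1 at 0 in both. The 8 neutrophil markers measured summed to 1.78 FPKM in DTA and 0.309 FPKM in control, with S100a9 at 0 in both. Among 4 monocyte markers Ccr2 stood at 0.0324 FPKM in DTA and 0.00788 FPKM in control, while Ly6c2 and Ly6c1, which endothelium shares, stood at 2.31 and 7.06 FPKM in DTA and 1.60 and 5.41 FPKM in control, differing by 0.35 and 0.33. Among 5 platelet markers, which share Selp, Pf4 was at 0 in both libraries of day 5, Itga2b differed by 1.29 under the floor and Gp1bb by -0.28.

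Of 12 endothelial markers 3 passed the floor at day 5, so the rest could not be called, and none was called. The median difference of the 12 was 0.09. Their sum was 56.8 FPKM in DTA, against 51.6 FPKM in control at day 5 and 55.4 FPKM in control at day 1. Among markers at 1 FPKM or more, the largest differences were those of Eng (0.58), Cldn5 (0.28), Esam (0.17) and Tek (0.09). Kdr alone, a receptor for VEGF, stood at 28.3 FPKM in DTA, against 27.7 FPKM in control at day 5 and 38.0 FPKM in control at day 1. Without Kdr the sum was 28.5 FPKM in DTA, against 23.9 FPKM in control at day 5 and 17.4 FPKM in control at day 1. The part of endothelium in the Icam1 and Vcam1 values was not tested. Among glial markers, Gfap of reactive glia and astrocytes differed by 3.15, and Aldh1l1 and S100b by 0.52 and -0.05. Of 9 Müller glia markers 2 were lower, Glul (-2.47) and Rlbp1 (-1.41), with Aqp4 at -0.81 and Clu at 0.73. Of the rod markers Gnat1, Nr2e3, Nrl and Cnga1 were lower, by -3.17, -2.73, -2.34 and -1.58. Among lens markers Cryaa (-3.85) and Crygb (-3.44) were called lower, and Crygd (-2.86) and Crygf (-1.32) were not. Pigment epithelium had no call, with 2 of 7 markers past the floor. Rpe65, Rgr, Ttr and Pmel lay at -1.28, -1.22, -1.04 and -0.41.

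At day 1, the microglia markers Cd68 and Fcer1g differed by 0.56 and 0.11 with no call, while Gfap (1.93) and the glial factor Sox9 (1.05) were called higher and Glul, Kcnj10 and S100b lay at -0.92, -0.67 and -0.42. Sag of rods differed by 0.30, the pigment epithelium genes Pmel, Rgr and Rdh5 by -0.95, -0.71 and -0.63, and the lens genes Cryga, Crygf and Crygd by 2.14, 1.83 and 1.29, without a call.

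**Figure D5:**
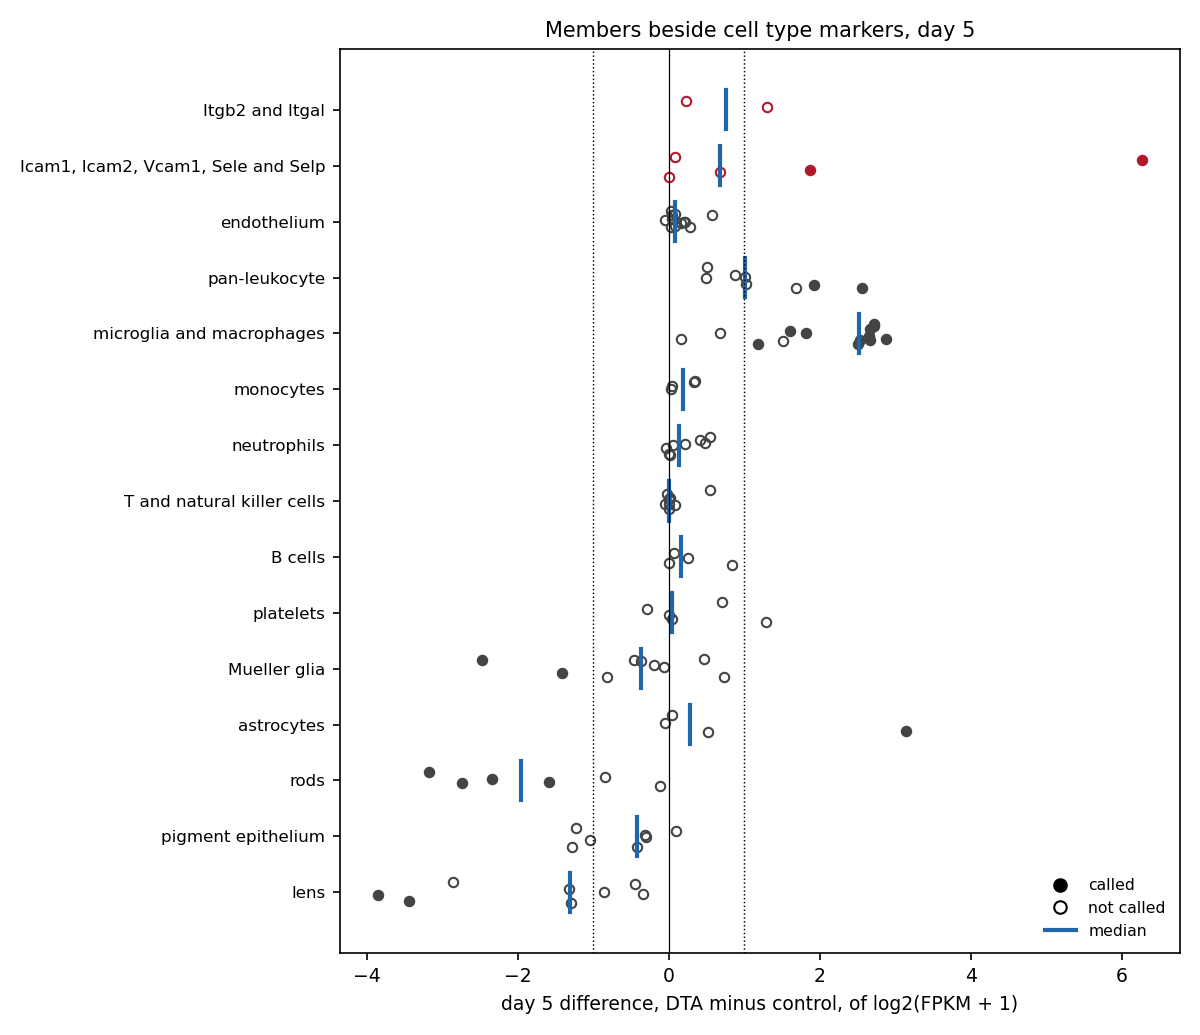
Day 5 difference, DTA minus control of log2(FPKM + 1), of members (red) beside markers of 13 cell types or tissues; filled points were called, open points not, and blue bars are medians. Microglia and macrophage markers centre on 2.52 and endothelial markers on 0.09.

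Likeness between genes was measured as the Euclidean distance of log2(FPKM + 1) over the 3 libraries with full files, among 10095 genes at 5 FPKM or more in one of them. With so few libraries it describes levels and no shared control. The nearest 5 to Icam1 were the small RNA genes Mir5116, Mir484, Mir106b, Scarna10 and Mir3087, at distances of 0.36 to 0.89. Another set, chosen after the values were seen, left out genes with small RNA names and all symbols of Gm followed by a digit. Among its 9673 genes the nearest to Icam1 were Steap4 (1.06), an inflammation-induced metalloreductase, Maff (1.18), a small Maf factor, and Cxcl10 (1.32), a chemokine. The nearest to Cd44 were Parp12 (0.16), an interferon-induced enzyme, H2-T23 (0.17), a class Ib antigen-presenting molecule, Jmjd5 (0.33), Csf1r (0.35), the receptor of microglia for growth signals, and Vwa5a (0.35). For Itgb2, whose own level is under the 5 FPKM that these genes had to reach, the nearest lay at 1.03 to 1.06 and were Irf8, a myeloid transcription factor, Lif, a cytokine, Gatm, a creatine enzyme, Madcam1 and Fcgr3, an antibody receptor of phagocytes.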

How the data were processed

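Sepazol was used to extract the retinal RNA and an mRNA-seq kit of Illumina to build libraries, per the labels' protocols. Cufflinks 2.1.1, bcl2fastq 1.8.4, CASAVA 1.8.2 and the mouse build mm9 are named without roles, per the submitters' processing notes. The files give an FPKM, a lower and an upper bound and a status for each gene, per the file headers. No source used here names the aligner, the annotation or the strandedness. FPKM divides by library size, so less of an abundant transcript raises the FPKM of all others.

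Lines with status FAIL or HIDATA, at most 26 per file, were read as missing. FPKM of several loci of 1 symbol were summed. Depth was estimated with the mm9 GENCODE annotation from single-transcript genes over 1500 bases, taking the commonest low FPKM times length as 1 fragment. Of the low values, 50.9% to 66.0% lay within 0.15 of a whole number of fragments, where evenly spread values would give 30%, so fragment numbers are approximate and cover counting error only. In 10.3% to 23.8% of lines the authors' upper bound lies below the FPKM. Starts have 1 added, since the files count from 0.

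A pseudocount of 1 was used. Members, lists, promoter motifs and rules were chosen with earlier results of these data known. Named were the 10 members, up to 4 genes per list at day 5 and 3 at day 1 with at least 1 FPKM and the largest differences, and the 5 nearest profiles of 3 members, of which some genes are not reported here. Analyses used Python 3.11.15, pandas 2.3.3, numpy 2.4.6 and matplotlib 3.10.9.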

Additional observations from a re-analysis of the deposited data

Results flagged for a closer look

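Some genes named above had differences of opposite sign at day 5 and day 1, each day having 1 DTA and 1 control library. The difference between the days was not tested, and values near 0 give no direction. Among the members the signs were opposite for Icam2, at 0.67 at day 5 and -0.0845 at day 1 (log2 scale, DTA minus control). Its authors' bounds overlapped at day 1. Genes above 0 at day 5 and below 0 at day 1 were Vcan, at 0.58 and -1.13, Lyz2, at 2.88 and -0.00583, Rap1b, at 0.50 and -0.0121, Vcl, at 0.29 and -0.16, Lims1, at 0.0450 and -0.15, and Lamc1, at 0.0423 and -0.0436. Of these, Lyz2, Rap1b and Lamc1 were near 0 at day 1. Lims1 and Lamc1 lay below the median of all genes at day 5, which was 0.06. Vcan also differed between the controls, by -1.20 (day 5 minus day 1), which is larger in size than either value. Genes below 0 at day 5 and above 0 at day 1 were the lens crystallins Cryga, at -1.29 and 2.14, Crygb, at -3.44 and 1.26, Crygd, at -2.86 and 1.29, and Crygf, at -1.32 and 1.83, and the rod gene Sag, at -0.11 and 0.30.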

How the results depend on the processing

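No paired analysis was possible because each group has 1 library and the labels give no replicate numbers, and for the same reason no library could be left out. Of 51 counts recomputed under another setting, 46 stayed within 1.5 times the reported one, but 26 of these set 0 against 0 and say little about stability. With the authors' bounds, 2 of 9 members with usable bounds were called at day 5 (Vcam1 and Cd44), in place of 4 of 10; Icam1 had no usable bounds, and Itga4 fell under the rule. The day 5 minus day 1 count of members was 1 (Itgb2), in place of 0, with a floor of 1 FPKM and with no floor. The pathway genes called at day 5 numbered 8 with a pseudocount of 5 and 7 with the authors' bounds, in place of 16; the smaller effect of low values under a larger pseudocount is by construction, and the cause was otherwise not tested. Over all genes the authors' bounds left 198 higher and 36 lower at day 5, and a pseudocount of 5 left 350 and 122. Icam1, Vcam1 and Cd44 stayed called at day 5 in each setting that gave them a value; no member's called difference turned in sign. Setting Itga4 aside was chosen after seeing the data. Values near 3 fragments, as in Sele and Selp, are limited by depth.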
